A study of Mus musculus with 8 samples.

Results

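A group of 10 glycolysis genes, among them the phosphofructokinase isoforms, was followed in glomeruli that lack the tetraspanin CD151. The members were Pfkl, Pfkm, Pfkp, Hk1, Hk2, Gpi1, Aldoa, Pgk1, Eno1 and Ldha, and a probe was taken where its listed symbol was a member's name. Of the 10 genes, 8 had a probe under their own symbol, with 13 probes among the 25697 of the array. Ldha was listed only under its older symbol Ldh1, so its probe fell outside that rule and is given beside the others. No probe was listed as Gpi1, and its level was not analysed here. RNA came from glomeruli of 4 Cd151-/- and 4 Cd151+/+ male mice of 3 weeks of age, all on the FVB/N background. Each mouse was hybridised to its own MouseRef-8 array, which measures the brightness of beads carrying a probe. The Cd151-/- mice carry a homozygous deletion of Cd151, and the labels name no treatment or further allele in either group.

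Glycolysis splits glucose into pyruvate in the cytosol and yields ATP without oxygen. Hexokinase traps glucose in the cell as a phosphate ester, and phosphofructokinase commits it to the pathway. Aldolase then cleaves the sugar, and later steps, among them that of Pgk1, yield ATP. Lactate dehydrogenase allows the pathway to continue by regenerating NAD+. Phosphofructokinase is a tetramer built from liver (Pfkl), muscle (Pfkm) and platelet (Pfkp) subunits, which differ in their response to the molecules that regulate the enzyme. In the kidney the glomerulus and the distal nephron break glucose down, while the proximal tubule makes it.

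The promoters of the 3 phosphofructokinase genes are shown because Pfkl and Pfkm had lower signals in the Cd151-/- mice while Pfkp varied most. Each window runs from 250 bases before an annotated start to 50 bases after it, so it covers upstream sequence and the beginning of the transcript. The sequences are those of RefSeq on GRCm38.p6, 5′ to 3′ on the gene's strand. Capitals mark the core letters ACGTG or GCGTG on either strand (the reverse reads CACGT or CACGC), which are the core of the hypoxia-inducible factor motif. The windows lie at chr10:78009758-78010057 on the minus strand for Pfkl, chr15:98108221-98108520 on the plus strand for Pfkm and chr13:6648722-6649021 on the minus strand for Pfkp.
Pfkl: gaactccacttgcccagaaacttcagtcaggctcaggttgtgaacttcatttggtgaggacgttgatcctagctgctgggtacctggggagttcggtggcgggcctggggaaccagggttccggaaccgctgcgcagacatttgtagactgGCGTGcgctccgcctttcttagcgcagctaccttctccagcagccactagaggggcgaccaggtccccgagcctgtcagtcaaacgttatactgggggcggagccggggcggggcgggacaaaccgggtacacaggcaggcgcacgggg
Pfkm: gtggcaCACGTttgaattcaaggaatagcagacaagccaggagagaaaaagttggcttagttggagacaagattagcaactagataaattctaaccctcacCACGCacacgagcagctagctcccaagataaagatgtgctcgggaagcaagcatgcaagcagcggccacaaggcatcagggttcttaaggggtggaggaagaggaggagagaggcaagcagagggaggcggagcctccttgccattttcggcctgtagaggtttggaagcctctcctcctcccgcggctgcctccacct
Pfkp: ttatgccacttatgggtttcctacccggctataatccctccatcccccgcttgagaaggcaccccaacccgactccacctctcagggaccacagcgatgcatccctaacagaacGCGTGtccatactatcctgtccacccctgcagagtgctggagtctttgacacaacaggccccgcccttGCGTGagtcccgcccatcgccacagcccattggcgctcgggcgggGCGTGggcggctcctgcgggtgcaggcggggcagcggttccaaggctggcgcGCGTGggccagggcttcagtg
The Pfkl window held 1 core and the Pfkp window held 4. RefSeq lists 4 windows for Pfkm, of which the second is shown and holds 2, against 3, 1 and 0 in the others in genomic order, and which start the glomerulus uses was not measured. The core was present in 43.8% of all 32851 promoter windows of this length and in 15 of the 19 windows of the 10 members, several of which overlap or belong to 1 gene. Gpi1 was the member without it. The GC box GGGCGG, searched on both strands, occurred 3 times in the Pfkl window, 4 times in the Pfkp window and in none of the Pfkm windows, against 35.7% of all windows with at least 1. The E-box CACGTG, which contains ACGTG, was absent from the 3 windows shown, occurred 1 time in the first Pfkm window and was present in 7.15% of all windows. A GC box can share bases with a GCGTG core. These matches describe the letters of the windows and carry no measurement of binding.

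Signals were background-corrected, quantile normalised and put on a log2 scale, so that 1 unit is a doubling, and the 14967 probes detected on at least 1 array were compared. Cd151 itself was detected by its 3 probes in 4 of 4 Cd151+/+ mice and in 0 of 4 Cd151-/- mice. Between 11291 and 12359 probes were detected per array. The arrays fell into 4 with a higher median deposited signal (143 to 164; Cd151+/+ mice 3 and 4, Cd151-/- mice 1 and 2) and 4 with a lower one (65.7 to 77.4), and each set held both genotypes. Genotype differences of the members, and of several other genes, are therefore also given within each set, as those of the higher-signal and lower-signal arrays. Across all probes 5 passed Benjamini-Hochberg adjustment in limma (0.0334%), 3 of them for Cd151 itself.

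At their brightest probes, the liver and muscle phosphofructokinase subunits were lower in every Cd151-/- mouse than in any Cd151+/+ mouse, by about 1.4-fold each. Such a separation occurred at 1.46% of all tested probes. The other probes of these subunits overlapped between the genotypes, as did the brightest probe of the platelet subunit. None of the 8 members passed adjustment over all probes, so the lower signals of Pfkl and Pfkm rest on unadjusted tests. The remaining enzymes of the pathway had no shared direction: Aldoa, Pgk1 and Eno1 had negative differences and Hk1, Hk2 and Ldha positive ones, none past an unadjusted p of 0.05. In RNA from whole glomeruli, fewer cells of a type and less RNA per cell cannot be told apart.

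Pfkl, the liver-type subunit, was the most even of the members among control mice. Its brightest probe (ILMN_1236539) read 11.76, 11.78, 11.79 and 11.69 in Cd151+/+ mice 1 to 4 and 11.37, 11.12, 11.52 and 11.12 in Cd151-/- mice 1 to 4. The lowest control mouse lay above the highest Cd151-/- mouse, and Cd151-/- mice 2 and 4 were the lowest. The means were 11.75 ± 0.05 and 11.28 ± 0.20 (SD, 4 mice each), a difference of -0.47 (SE 0.19, 95% confidence interval -0.90 to -0.04), or 1.39-fold higher signal in the controls. The unadjusted limma p was 0.0340 and the adjusted p was 0.918. The two-sided exact permutation test gave p = 0.0286, the smallest that 4 against 4 mice allows. The difference was -0.49 on the higher-signal arrays and -0.45 on the lower-signal arrays. The dimmer Pfkl probe (ILMN_2871325) had a difference of -0.32 with an unadjusted limma p of 0.187, and the groups overlapped.

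Pfkm, the muscle-type subunit, was lower in the Cd151-/- mice by a like amount. Its brightest probe (ILMN_2628892) read 11.54, 11.40, 11.21 and 11.55 in Cd151+/+ mice 1 to 4 and 11.07, 11.01, 11.09 and 10.53 in Cd151-/- mice 1 to 4. Again the genotypes did not overlap, with Cd151-/- mouse 4 apart from the other three and control mouse 3 nearest to the Cd151-/- mice. The means were 11.42 ± 0.16 and 10.93 ± 0.27 (SD, 4 mice each), a difference of -0.50 (SE 0.21, 95% confidence interval -0.97 to -0.03), or 1.41-fold. The unadjusted limma p was 0.0395, the adjusted p 0.918 and the exact permutation p 0.0286. On the higher-signal arrays the difference was -0.34 and on the lower-signal arrays -0.66. Of the other Pfkm probes, ILMN_1252214 differed by -0.59 (unadjusted limma p of 0.0340, adjusted p = 0.918) and ILMN_3004553 by -0.41 (unadjusted limma p of 0.217), and at both the genotypes overlapped.

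The study named Pfkl and Pfkm from these same mice, so their lower signals are not independent evidence of a direction. Pfkl was among the genes that the study's SAM analysis called under a false discovery rate cut-off, looser than the 0.05 used here. Pfkm was not among those genes and was named at an unadjusted p below 0.05. Both unadjusted calls were sensitive to the mice included. For Pfkl, the unadjusted limma p remained below 0.05 without Cd151+/+ mouse 4 or without Cd151-/- mouse 3, and rose to between 0.0522 and 0.0831 without any of the other 6. For Pfkm it remained below 0.05 without Cd151+/+ mouse 3 or Cd151-/- mouse 1 or 3, and otherwise reached 0.0541 to 0.112, the highest without Cd151-/- mouse 4. The difference itself kept its sign each time, between -0.55 and -0.42 for Pfkl and between -0.56 and -0.36 for Pfkm. With the 75th percentile in place of quantile normalisation the unadjusted limma p was 0.0796 for Pfkl and 0.0710 for Pfkm, and with the mean over the probes of each gene the Pfkl p was 0.0694.

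Pfkp, the platelet-type subunit, had the widest range among the Cd151-/- mice. Its brightest probe (ILMN_1237695) read 9.50, 9.19, 8.88 and 9.38 in the Cd151+/+ mice and 8.41, 8.32, 9.07 and 10.06 in the Cd151-/- mice, each in order of mouse number. Cd151-/- mice 1 and 2 were below every control, and Cd151-/- mouse 4 was above every control. The means of 9.24 ± 0.27 and 8.96 ± 0.80 (SD, 4 mice each) differed by -0.27 (SE 0.36), with an unadjusted limma p of 0.466. The difference was -0.77 on the higher-signal arrays, which hold Cd151-/- mice 1 and 2, and 0.22 on the lower-signal arrays, which hold mice 3 and 4. Without Cd151-/- mouse 4 it was -0.64 with an unadjusted limma p of 0.0395 (adjusted p = 0.933), whereas without Cd151-/- mouse 1 or 2 it was -0.09 or -0.06 (unadjusted limma p of 0.822 and 0.877). With array weights it was -0.69 (unadjusted limma p of 0.0342, adjusted p = 0.129). The probe ILMN_2673233 differed by -0.17 (unadjusted limma p of 0.491), and ILMN_2807702 was detected on no array and was not tested.

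**Figure D1:**
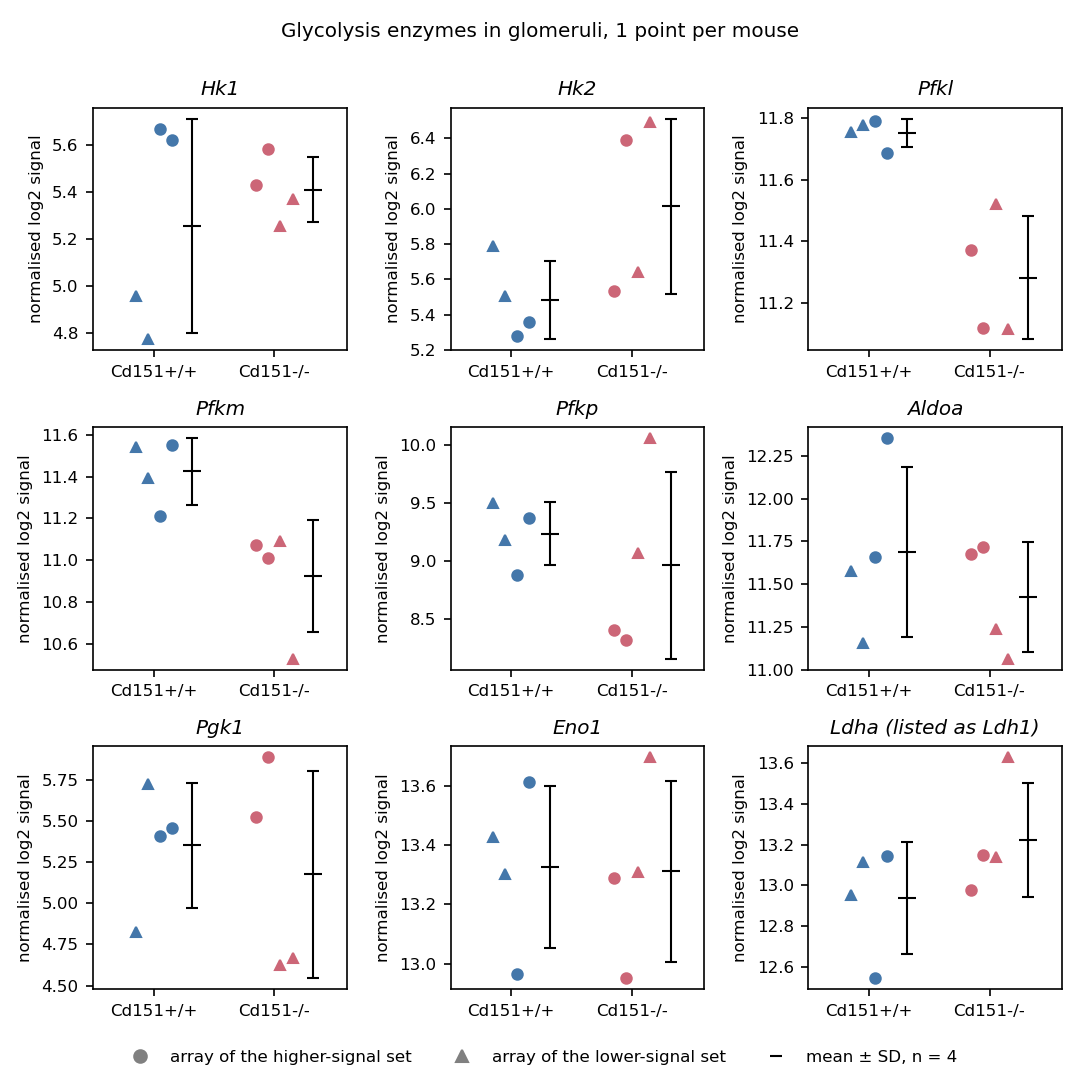
Normalised log2 signal of the brightest probe of each glycolysis gene, 1 point per mouse, by genotype; each panel has its own axis, circles are the higher-signal and triangles the lower-signal arrays, and bars are mean ± SD of 4 mice. The Cd151-/- mice lie below all Cd151+/+ mice for Pfkl and Pfkm, and overlap them in the other panels.

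The isoforms were next set against each other within each mouse, as the log2 signal of one probe minus that of another with the Cd151+/+ mean set to 0. These values are a description and were not tested. Pfkl minus Pfkm ranged from -0.19 to 0.25 in the controls and from -0.22 to 0.26 in the Cd151-/- mice, with a difference of means of 0.03. Pfkl minus Pfkp was 0.45, 0.28, -0.06 and -1.46 in Cd151-/- mice 1 to 4, against -0.26 to 0.39 in the controls. Pfkm minus Pfkp was 0.48, 0.51, -0.16 and -1.72 in Cd151-/- mice 1 to 4, against -0.15 to 0.14 in the controls. For both balances against Pfkp, Cd151-/- mouse 4 lay far below all other mice. Cd151-/- mice 1 and 2 lay above every control for Pfkm minus Pfkp, and mouse 1 alone for Pfkl minus Pfkp. The Cd151-/- means were -0.20 and -0.22, and without mouse 4 they were 0.22 and 0.27, so that mouse set their sign.

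**Figure D2:**
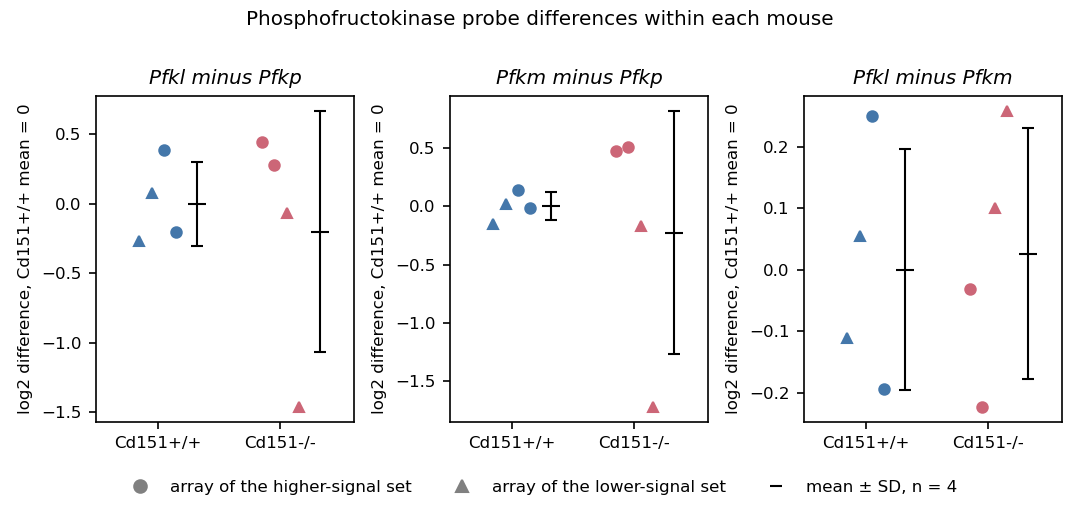
Difference in log2 signal between pairs of phosphofructokinase probes within each mouse, with the Cd151+/+ mean set to 0, by genotype; circles are the higher-signal and triangles the lower-signal arrays, and bars are mean ± SD of 4 mice. Cd151-/- mouse 4 stands at -1.46 for Pfkl minus Pfkp and at -1.72 for Pfkm minus Pfkp.

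Hexokinases, which phosphorylate glucose at the entry of the pathway, were near the detection limit. Hk1, the housekeeping form, was detected in 2 mice of each genotype, all on higher-signal arrays, and differed by 0.15 (SE 0.25, unadjusted limma p of 0.553). Its difference was -0.14 on the higher-signal and 0.45 on the lower-signal arrays. Hk2, the insulin-responsive form, was detected in 3 Cd151+/+ and 4 Cd151-/- mice. Its signal was 5.79, 5.50, 5.28 and 5.36 in the controls and 5.53, 6.39, 5.64 and 6.49 in the Cd151-/- mice, in order of mouse number. Cd151-/- mice 2 and 4 were above every control, while mice 1 and 3 lay among them. The difference was 0.53 (SE 0.27, 95% confidence interval -0.06 to 1.13), with an unadjusted limma p of 0.0751, an adjusted p of 0.918 and an exact permutation p of 0.114. On the higher-signal arrays it was 0.64 and on the lower-signal arrays 0.42. Leaving out Cd151-/- mouse 1 gave 0.66 (unadjusted limma p of 0.0369) and leaving out Cd151-/- mouse 3 gave 0.68 (unadjusted limma p of 0.0431), while leaving out Cd151-/- mouse 2 or 4 gave 0.38 each time (unadjusted limma p of 0.199 and 0.195). The difference was 0.23 without the normexp background correction, 0.34 with an offset of 50 and 0.30 with array weights (unadjusted limma p of 0.128, 0.0936 and 0.252).

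Downstream of phosphofructokinase, Aldoa, the aldolase that cleaves the doubly phosphorylated sugar, read 11.16 to 12.35 in the controls and 11.06 to 11.72 in the Cd151-/- mice. The difference was -0.26 (SE 0.28, unadjusted limma p of 0.376), and the highest signal was that of control mouse 4. On the higher-signal arrays the Aldoa difference was -0.31 and on the lower-signal arrays -0.22. Pgk1, the kinase of the first ATP-yielding step, was detected in 3 Cd151+/+ and 2 Cd151-/- mice and differed by -0.18 (SE 0.33, unadjusted limma p of 0.597). Its difference was 0.27 on the higher-signal and -0.63 on the lower-signal arrays. Eno1, the enolase that forms phosphoenolpyruvate, had means of 13.33 ± 0.27 and 13.31 ± 0.30 (SD, 4 mice each). The difference of -0.01 had a 95% confidence interval of -0.53 to 0.50, which contains differences of the size seen for Pfkl and Pfkm in either direction. For Eno1 the higher-signal arrays gave -0.17 and the lower-signal arrays 0.14. Ldha, the lactate dehydrogenase subunit, was 12.95, 13.11, 12.55 and 13.15 in the controls and 12.98, 13.15, 13.14 and 13.63 in the Cd151-/- mice. Control mouse 3 was the lowest and Cd151-/- mouse 4 the highest, and the difference was 0.28 (SE 0.23, unadjusted limma p of 0.245). It was 0.22 on the higher-signal and 0.35 on the lower-signal arrays.

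**Figure D3:**
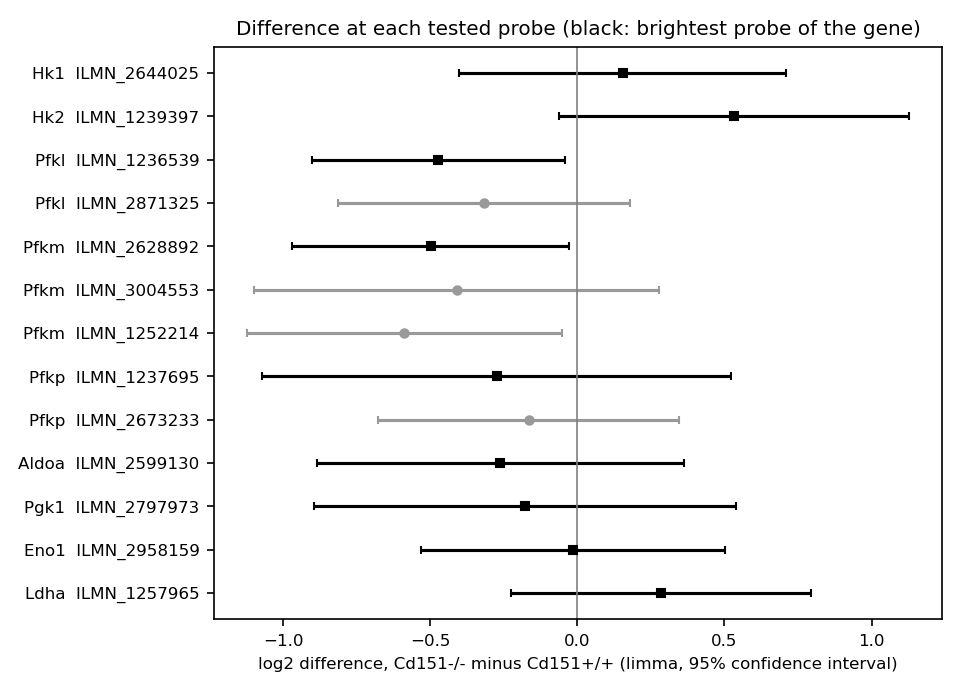
Log2 difference, Cd151-/- minus Cd151+/+, with its 95% confidence interval from limma, at each tested probe of the glycolysis genes; black squares are the brightest probe of a gene and grey circles its other probes. The intervals of the brightest Pfkl and Pfkm probes and of Pfkm ILMN_1252214 lie below 0 before adjustment, and the others cross it.

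Across the 8 members with a probe of their own symbol, 6 differences were negative and 2 positive, with a median of -0.22. That median shrank to -0.09 when Cd151+/+ mouse 4 was left out, to -0.11 and -0.14 when Cd151-/- mouse 3 or 4 was, and to -0.02 with array weights. Over all tested probes the median was -0.0073 and 50.9% were negative. At an unadjusted p of 0.05, 2 of 8 were lower and 0 higher in the Cd151-/- mice, against 2.61% of all tested probes lower and 1.69% higher. In 2 of 8, every Cd151-/- mouse was below every control and in 0 every Cd151-/- mouse was above, against 1.46% and 0.855% of all tested probes. With 8 genes these shares rest on Pfkl and Pfkm, which had been named from these data. Cd151-/- mouse 4 held the lowest signal of all 8 mice for Pfkm, Aldoa and, level with Cd151-/- mouse 2, Pfkl, and the highest for Pfkp, Hk2 and Eno1.

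The pattern of Pfkl over the 8 mice was most closely followed by Toe1, Dtx3 and Otub1, with mean absolute distances between centred log2 signals of 0.06, 0.07 and 0.08. For Pfkm the nearest were Pbx2, Itm2a and Tjap1, at 0.07, 0.09 and 0.09. All 6 were lower on average in the Cd151-/- mice, by 0.35 to 0.59, and the likeness over 8 mice includes that shared difference.

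The other genes of glucose metabolism were read for comparison, 52 of them tested in 6 lists. Of these 34 had positive and 18 negative differences, with a median of 0.11. At an unadjusted p of 0.05, 1 was higher and 0 were lower, against 1.69% and 2.61% of all tested probes. The gene that passed was Eno3, the muscle enolase, which the study also listed as up-regulated in these same mice. Its signal was 8.10, 8.29, 7.48 and 7.63 in Cd151+/+ mice 1 to 4 and 8.75, 8.62, 8.99 and 8.32 in Cd151-/- mice 1 to 4. Every Cd151-/- mouse was above every control, although Cd151+/+ mouse 2 and Cd151-/- mouse 4 nearly met. That separation occurred in 1 of the 52 genes, against 0.855% of all tested probes. For Eno3 the signals are therefore not evidence independent of the study. The difference was 0.80 (SE 0.25), with an unadjusted limma p of 0.00893, an adjusted p of 0.918 and an exact permutation p of 0.0286. It was 1.13 on the higher-signal and 0.46 on the lower-signal arrays. The more abundant steps of the pathway had small positive or negative differences: 0.18 for Gapdh (listed as Gapd), 0.26 for Tpi1, 0.21 for Pgam1 and -0.31 for the pyruvate kinase Pkm (listed as Pkm2), none past an unadjusted limma p of 0.05. No probe was listed for Ldhb.

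The bifunctional enzymes Pfkfb2, Pfkfb3 and Pfkfb4, which make and remove an allosteric activator of phosphofructokinase, had differences of 0.28, 0.05 and 0.03, with the smallest unadjusted limma p at 0.329. Of 5 glucose and lactate carriers tested, 2 were positive and 3 negative, from -0.35 for Slc16a3 to 0.29 for Slc2a2, and the ubiquitous glucose carrier Slc2a1 was at 0.24. Gluconeogenesis genes, which run the pathway backwards, were positive in 5 of 6 with a median of 0.67, led by Fbp2 at 0.91, Pcx at 0.72 and G6pc at 0.70, and 0 passed an unadjusted limma p of 0.05. That median was 0.43 without Cd151-/- mouse 4 and ranged up to 0.96 without Cd151+/+ mouse 4. For these 3 the differences were 1.85, 1.40 and 1.71 on the lower-signal arrays and -0.04, 0.04 and -0.30 on the higher-signal arrays. Pyruvate entry genes were positive in 8 of 10, with a median of 0.34, and side paths, among them the pentose phosphate and glycogen genes, in 7 of 14. In neither list did a gene pass an unadjusted limma p of 0.05. Of 9 genes of the hypoxia response, 6 were negative and 3 positive. Ddit4, a stress-induced inhibitor of growth signalling, differed by -0.97 (unadjusted limma p of 0.0356, adjusted p = 0.918), with overlapping genotypes and an exact permutation p of 0.114. Adm, a vasodilator peptide, differed by 0.96 (1.97 on the higher-signal and -0.06 on the lower-signal arrays) and the oxygen sensor Egln3 by 0.53, with unadjusted limma p of 0.174 and 0.168. Egln3 was detected in 0 Cd151+/+ and 2 Cd151-/- mice. Its difference was 1.12 on the higher-signal and -0.06 on the lower-signal arrays.

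**Figure D4:**
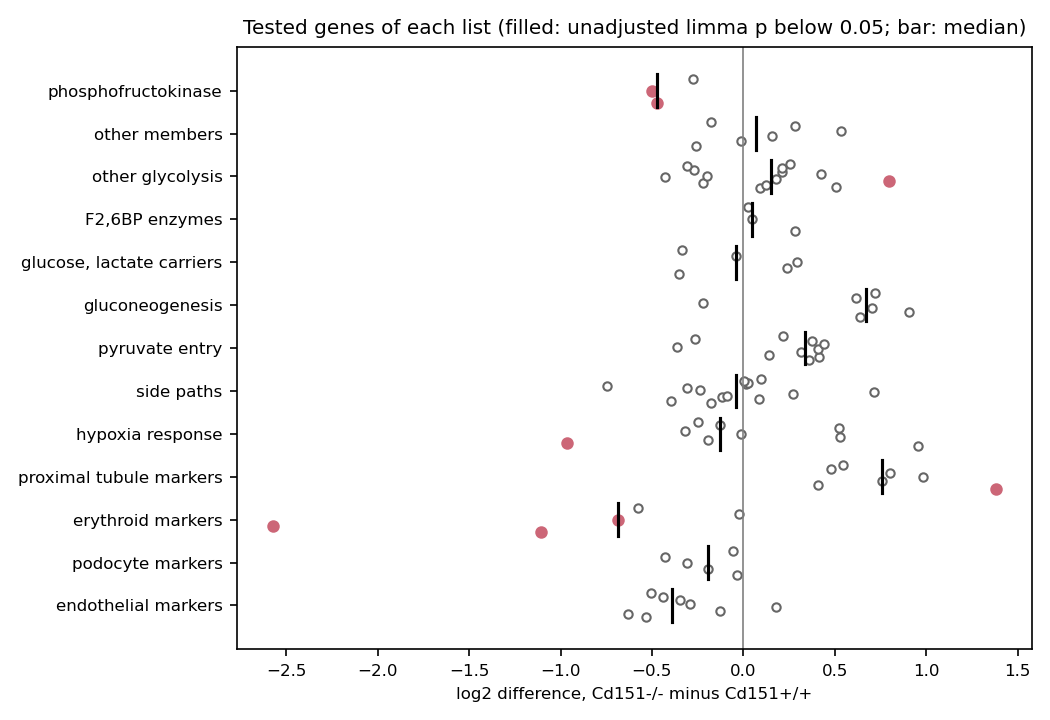
Log2 difference, Cd151-/- minus Cd151+/+, of each tested gene of the glycolysis, glucose metabolism and marker lists, 1 point per gene; filled points had an unadjusted limma p below 0.05 and black bars are medians. The phosphofructokinase genes lie below 0, the gluconeogenesis genes lie mostly above it, and the proximal tubule markers all lie above it.

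Markers of the cell types in the preparation were read beside these results, 43 of them tested. At an unadjusted limma p of 0.05, 2 were higher and 4 lower in the Cd151-/- mice, against 1.69% and 2.61% of all tested probes. Of the 43, 0 passed adjustment and 0 separated the genotypes. Proximal tubule markers had positive differences in 7 of 7, with a mean log2 signal of 9.43 to 10.78 in the controls and 10.38 to 11.74 in the Cd151-/- mice, and 1 of them, Kap, passed an unadjusted limma p of 0.05 at 1.38. The differences ran from 0.71 to 1.91 on the lower-signal arrays and from -0.34 to 0.85 on the higher-signal arrays. In that order they were 1.91 and 0.85 for Kap, 1.81 and 0.15 for Slc22a6, 1.41 and 0.10 for Miox, and 1.57 and 0.03 for Slc27a2. The mean of the proximal tubule markers was highest in Cd151-/- mouse 4, the mouse with the lowest Pfkm and highest Pfkp signals. It was next highest, at 11.20, in Cd151-/- mouse 1, where Pfkm read 11.07 and Pfkp 8.41. Erythroid markers were negative in 5 of 5, with a mean of 9.02 to 9.39 in the controls and 7.52 to 9.59 in the Cd151-/- mice, and Alas2 differed by -2.57, Ahsp by -1.11 and Hba-a1 by -0.69, each with an unadjusted limma p below 0.05. Of the podocyte markers, Ptpro differed by -0.43 and Podxl by -0.31, and those of the glomerular endothelium were negative in 7 of 8 with a median of -0.39, without any past an unadjusted limma p of 0.05. Among mesangial and smooth muscle markers, Acta2 differed by 0.71 and Pdgfrb by -0.74, both past that threshold. Markers of the distal nephron were negative in 3 of 4, those of leukocytes in 3 of 6 and those of skeletal and cardiac muscle in 2 of 2, none past it. The tissue is labelled as glomerular isolate, and the podocyte markers Ptpro (means of 13.46 in the controls and 13.03 in the Cd151-/- mice) and Podxl (12.01 and 11.70) were present in both genotypes. The part of these cell types in the values of Pfkl, Pfkm, Pfkp or Eno3 was not tested.

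**Figure D5:**
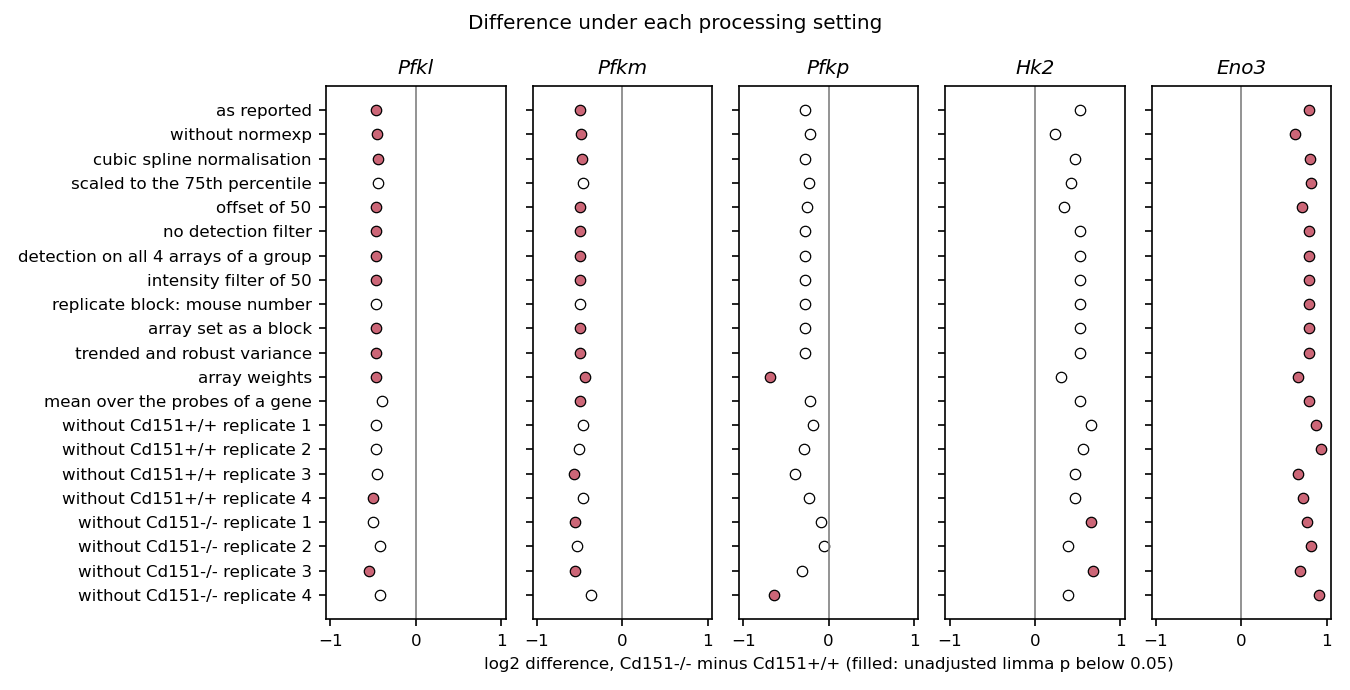
Log2 difference, Cd151-/- minus Cd151+/+, of Pfkl, Pfkm, Pfkp, Hk2 and Eno3 as reported and under each alternative processing or with 1 mouse left out; filled points had an unadjusted limma p below 0.05. Pfkl and Pfkm stay negative and Eno3 positive throughout, while the p of Pfkl and Pfkm crosses 0.05 in both directions.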

How the data were processed

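Glomeruli were captured by the authors with magnetic beads, and RNA was hybridised to MouseRef-8 v1.1 arrays. The table deposited by the authors, read out with GenomeStudio per the submitters' processing notes, gives a signal intensity for each probe and array, neither background-corrected nor normalised. Beside it the deposited detection p-value is the share of 798 negative-control probes at least as bright. The build behind the probes is not given in the sources used here. In R 4.3.3, limma 3.58.1 was applied to all 8 arrays: background inferred from the detection p-values, neqc (offset 16, quantile normalisation), a filter that kept probes detected at p-values up to 0.05 on 1 array or more, lmFit and eBayes by genotype, and Benjamini-Hochberg adjustment over the 14967 tested probes. All p-values called unadjusted come from that fit or its stated alternative. Exact tests were two-sided over 70 relabelings. SAM, used in the study, was not run. The fit was tested on simulated data.

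The members and gene lists were chosen with earlier results of these data known. All members were named with every probe, the brightest standing for the gene; of each other list, at most the 4 genes with the smallest p, plus Gapdh, Pkm, Tpi1, Pgam1 and Ldhb. Of 18120 symbols, 12036 matched RefSeq names (GRCm38.p6) directly and 5204 through a synonym. Promoter sequences and names alone were taken from that table. The deposited mouse numbers name mice and were not used as pairs. The alternatives were signals without normexp correction, cubic spline and 75th percentile normalisation, an offset of 50, 3 other filters, a replicate block, the array set as a block, robust variance, array weights, mean over probes and leaving out each mouse. The number of arrays limits the precision.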

Additional observations from a re-analysis of the deposited data

Results flagged for a closer look

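Pfkm probe ILMN_2628892 held a mouse far from the others of its genotype. Cd151-/- mouse 4 read 10.53 against 11.01 for the nearest of the other Cd151-/- mice, a gap of 0.858 of the whole range of that group. It was the only such case in 32 groups examined, and chance alone gives about 1 in 20. Without that mouse the Pfkm difference was -0.36 with an unadjusted limma p of 0.112.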

How the results depend on the processing

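No member passed adjustment under any of the 20 alternatives. Of the 2 members lower at an unadjusted p of 0.05, 0 remained with the 75th percentile scaling, 0 with the mouse number as a replicate block and 1 with the mean over the probes of a gene. With array weights 3 were lower, Pfkp being the addition (unadjusted limma p of 0.0342, adjusted p = 0.129). The share of all tested probes passing was counted for the reported fit only. The counts under other settings therefore have no background beside them. Leaving out 1 mouse gave 0 to 2 lower and 0 to 1 higher. Both Pfkl and Pfkm were lost without Cd151+/+ mouse 1 or 2 or Cd151-/- mouse 2 or 4, and the 1 counted without Cd151-/- mouse 4 was Pfkp. The deviations of same-numbered mice had correlations of -0.58, -0.40, -0.53 and -0.01. Each such pair had 1 mouse in the higher-signal and 1 in the lower-signal set, so these values cannot show whether mice were paired. Under the replicate block the unadjusted limma p was 0.0858 for Pfkl and 0.0964 for Pfkm. With the 75th percentile scaling 1 member, not 2, had every Cd151-/- mouse lower. Of the other glucose metabolism genes, where 1 passed an unadjusted p of 0.05, 4 did with no detection filter, 6 with the array set as a block, 22 with array weights and 1 to 9 with 1 mouse left out: 9 without Cd151+/+ mouse 4, and 2, 3 and 4 without Cd151-/- mouse 1, 2 or 3. For Pfkl an unadjusted limma p of 0.0158 with the array set as a block had an adjusted p of 0.379. In the reported fit its 0.0340 had 0.918. Small p-values were thus more frequent over all probes with array weights and with the array set as a block, and these counts include that rise. The cause was not tested.

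Among the members, signs reversed for Eno1, Hk1, Pgk1 and Aldoa, whose differences were -0.01, 0.15, -0.18 and -0.26. The median absolute difference of all tested probes was 0.21. Eno1 was 0.057 with cubic spline normalisation, 0.0098 with the 75th percentile scaling and -0.14 to 0.11 with 1 mouse left out, positive when that was control mouse 1 or 4 or knockout mouse 2. Hk1 was -0.12 with the 75th percentile scaling and -0.0061 (without Cd151+/+ mouse 2) to 0.29 with 1 mouse left out. Aldoa was 0.070 and Pgk1 0.13 with array weights, and Pgk1 was -0.38 to 0.0054 with 1 mouse left out, the latter without Cd151-/- mouse 3. Without Cd151-/- mouse 4 the isoform balances also changed sign: Pfkl minus Pfkp to 0.22, Pfkm minus Pfkp to 0.27 and Pfkl minus Pfkm to -0.05. Pfkl minus Pfkm was also negative without Cd151+/+ mouse 1 or 4. Hk1, Hk2 and Pgk1 lay near the background of the arrays, which limits what can be read from them.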
